A study of Arabidopsis thaliana with 12 samples.

Results

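The 50 named genes described here ranked lower on every array of the Arabidopsis thaliana psan mutant than on any wild-type (WT) array. All 3439 probes were ranked within each array, with ties averaged. A gene was kept when it had a probe with 1 gene symbol, when its highest psan rank lay below its lowest WT rank, and when its mean WT intensity was at least 0.1. Of the 692 probes with 1 symbol, 58 ranked lower on every psan array and 57 of these reached the WT minimum. The other 7 of the 57, among them PSAN itself, were left out of the set by listed name or row, which gave 50. The genes were chosen by their measured psan and WT ranks, so their levels and fold changes are a description, and no test between the groups is given for them. Over all probes, 351 of 3439 ranked lower on every psan array, which is 10.2%.

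PSAN encodes PSI-N, a small nuclear-encoded subunit of photosystem I that sits on the lumen side of the thylakoid membrane, where plastocyanin hands over its electron. Photosystem I passes electrons on to ferredoxin, which feeds NADP reduction and, through ferredoxin-thioredoxin reductase, the thioredoxins that switch plastid enzymes on in the light. Most proteins of the chloroplast are encoded in the nucleus, and the plastid's own genes need nuclear-encoded RNA-binding, editing and transcription factors.

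The series held 6 samples of WT and 6 of psan, both of ecotype Columbia 0, and total RNA of each was measured on an expression array. The psan plants lack PSI-N, and the sources used here do not give its allele, the tissue, the growth conditions or the plant age. Whether the numbered samples came from separate plants is not said either. In each group numbers 1 and 2, 3 and 4, and 5 and 6 resembled each other most, with deviations from the group mean that correlated at 0.0331 to 0.601 within these pairs. The arrays' number limits the precision. All 25 marker genes looked for, of leaf mesophyll, root, seed, pollen, guard cells and vascular tissue, had no probe, so the tissue could not be checked.

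PSAN was low on every psan array, with a deposited intensity of 6.30 ± 1.27 in WT against 0.176 ± 0.0697 in psan (SD, n = 6 each). WT arrays 1 and 2 stood apart from the other WT arrays, with 14.5% and 15.1% of all probes at 0 against 4.68% to 6.25%. Arrays of psan had 6.19% to 10.8% of probes at 0. Median intensities differed too: over all probes they were 0.0970 to 0.195 in WT and 0.229 to 0.271 in psan, so at equal deposited intensity a probe near the median ranks lower in psan.

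The 50 genes covered a wide range of brightness. Their mean WT intensities ran from 0.117 for AT4G02580 to 20.8 for AT1G62250, with a median of 0.586 against 0.166 over all probes. The rule asks for a WT mean of at least 0.1 and for high WT ranks, so a brighter WT median follows from the choice. In 20 of them the WT mean was under 0.5, in 19 it lay between 0.5 and 2, and in 11 it was higher. Their mean psan intensities ran from 0.0191 to 7.67, with a median of 0.281 against 0.254 over all probes. Array by array, the median rank of the 50 genes lay between 2720.5 and 2830 in WT and between 1744.5 and 2153 in psan. Among the psan arrays it was lowest on arrays 3 and 4, at 1838.5 and 1744.5, and highest on arrays 5 and 6, at 2153 and 2053.5.

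**Figure D1:**
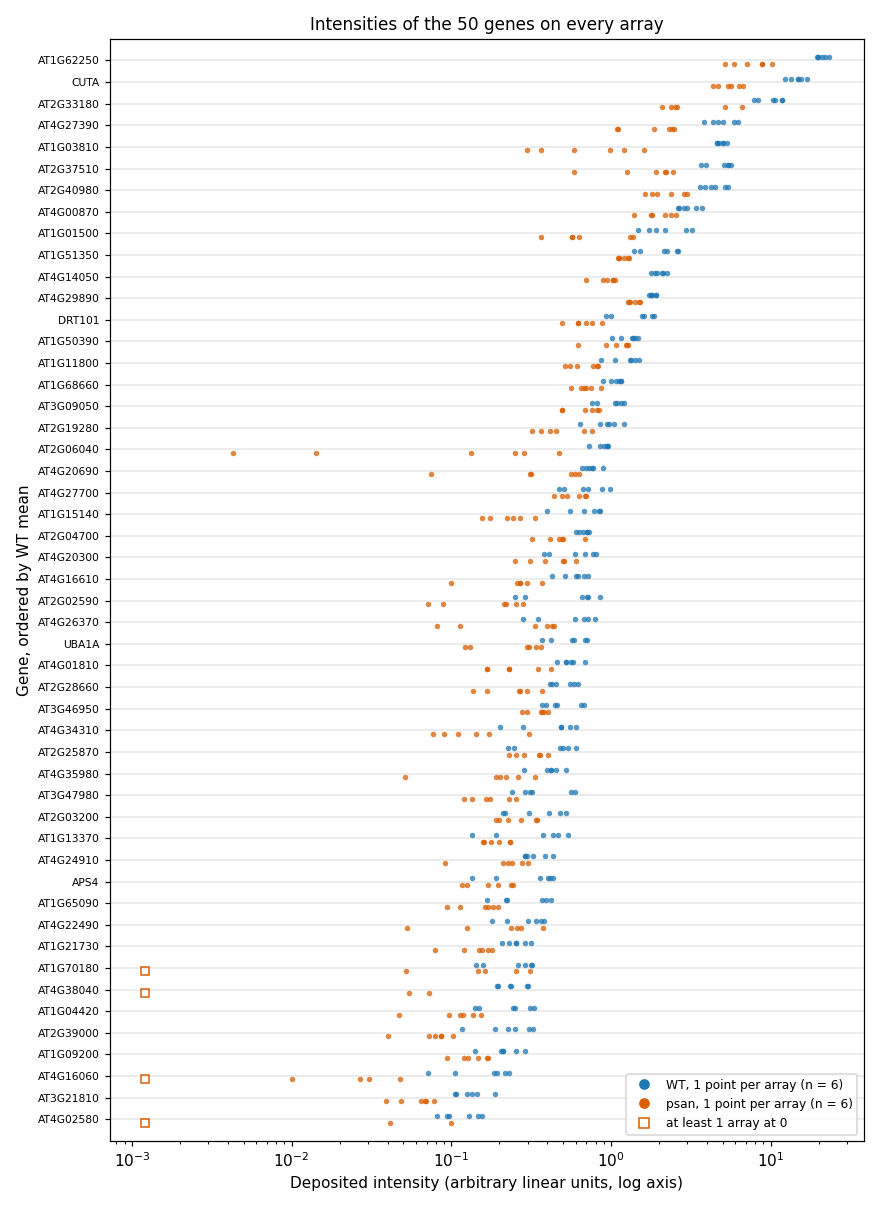
Deposited intensity (linear units, drawn on a log axis) of each of the 50 genes, ordered by WT mean, with 1 point per array, 6 WT arrays above and 6 psan arrays below each line. Open squares at the left edge mark genes with at least 1 psan array at 0. In 27 genes the WT and psan points do not overlap, and in the other 23 they do, where 5.26% of all probes were lower in psan without overlap.

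Before any normalisation, the groups did not overlap in 27 of the 50 genes and overlapped in 23. Over all 3439 probes, 5.26% were lower in psan without overlap on this scale. The ranks that chose the genes come from these intensities, so nothing is read from the count. The genes were above 0 on all WT arrays. On psan arrays, 4 genes had zeros, namely AT4G38040, AT4G02580, AT4G16060 and AT1G70180. Zeros have no log, so the fold changes below leave them out array by array.

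Fold changes are psan minus WT on the log2 scale after quantile normalisation, with the standard error (SE) of a limma fit over the whole table. Their median over the 50 genes was -1.42, against -0.015 over all 3376 probes tested. They ran from -3.29 for AT2G06040 to -0.49 for AT1G50390. A fall of at least 2-fold was fitted for 37 genes, of which 8 fell at least 4-fold. On the values as deposited 27 genes fell at least 2-fold, and 25 did with the probe number corrected as described below. The share of all probes at this fold was not counted and the genes were chosen as lower, so nothing is read from these counts. The median fold change of the 50 genes was -1.07 on the values as deposited, where the median of all probes was 0.46. It was -1.75 after centring arrays on their medians, where that of all probes was -0.20. Median centring moved 9 of the genes farther from 0 by over 1.5 times. The values were then -4.13 for AT2G06040, -3.47 for AT1G03810, -2.31 for AT2G33180, -2.26 for AT2G37510, -2.16 for AT4G27390, -2.15 for AT1G62250, -2.09 for CUTA, -1.68 for AT2G40980 and -1.29 for AT4G00870.

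**Figure D2:**
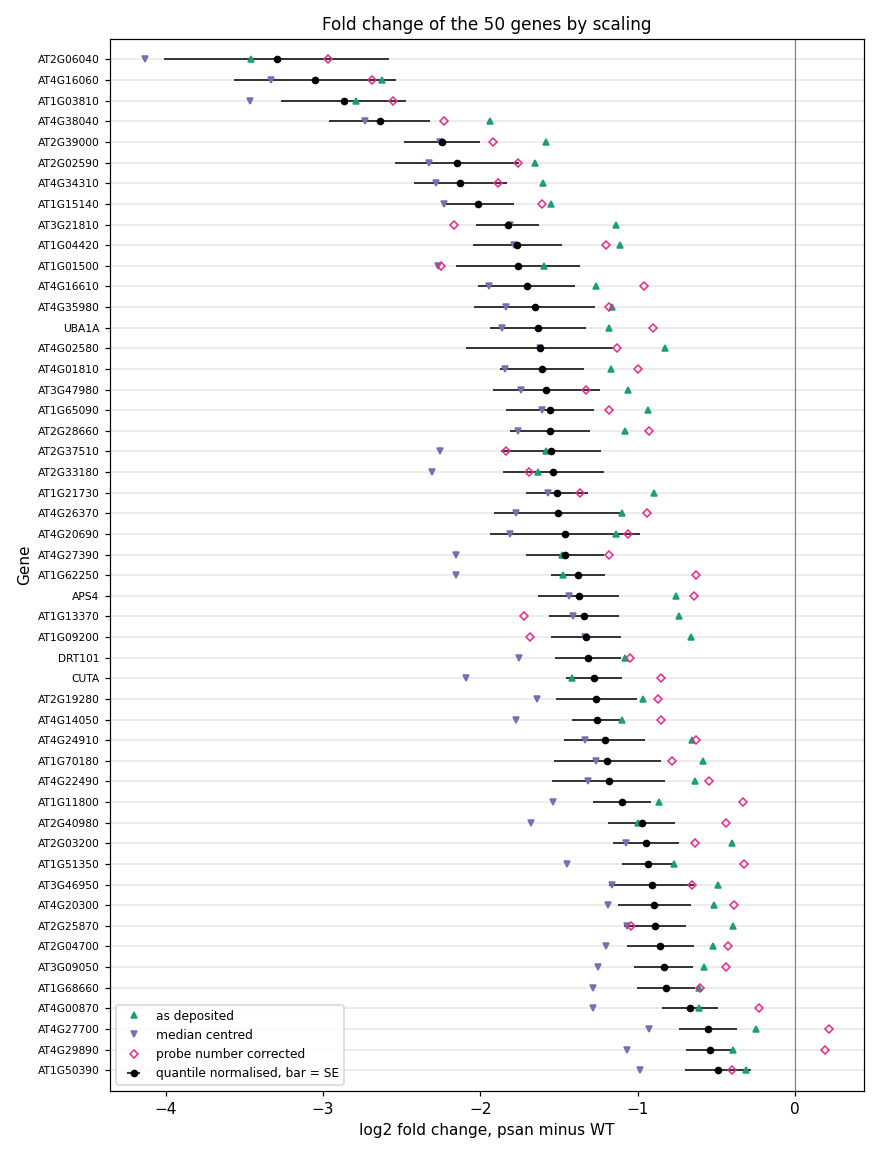
Log2 fold change, psan minus WT, of the 50 genes after quantile normalisation (black points, bars are the SE) and under 3 other treatments of the values (as deposited, median centred, probe number corrected). Every value lies below 0 except those of AT4G29890 and AT4G27700 with the probe number corrected.

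The probe number moved with the result. Over all probes the fold change varied along the probe numbers in a repeat of 24 bins of 12 numbers. The bin medians ran from -0.75 in bin 4 to 0.58 in bin 20. Of the 50 genes, 44 lay in the 12 bins with the lowest medians, which is 88%, whereas these bins held 43.1% of the 677 tested probes with 1 symbol. Bin 4 held 9 of the 50 genes and bin 8 held 7. The sources used here do not say what the numbers stand for on the array.

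After medians over the bins and over the 12 places within a bin had been removed from every array, the median fold change of the 50 genes was -0.98, and 43 genes moved nearer to 0. Ranked again on the corrected values, 30 of the 50 still ranked lower on every psan array and 20 did not. Over the 692 probes with 1 symbol, the whole rule kept 46 genes on the corrected values, these 30 among them. The share over all probes was not counted after the correction. The 50 were chosen by their uncorrected ranks on the same arrays, so nothing is read from the count of 30. Corrected fold changes of the 30 ran from -2.97 to -0.33, with a median of -1.35. Those of the 20 ran from -1.18 to 0.22, with a median of -0.62. AT4G29890 and AT4G27700 turned sign.

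**Figure D3:**
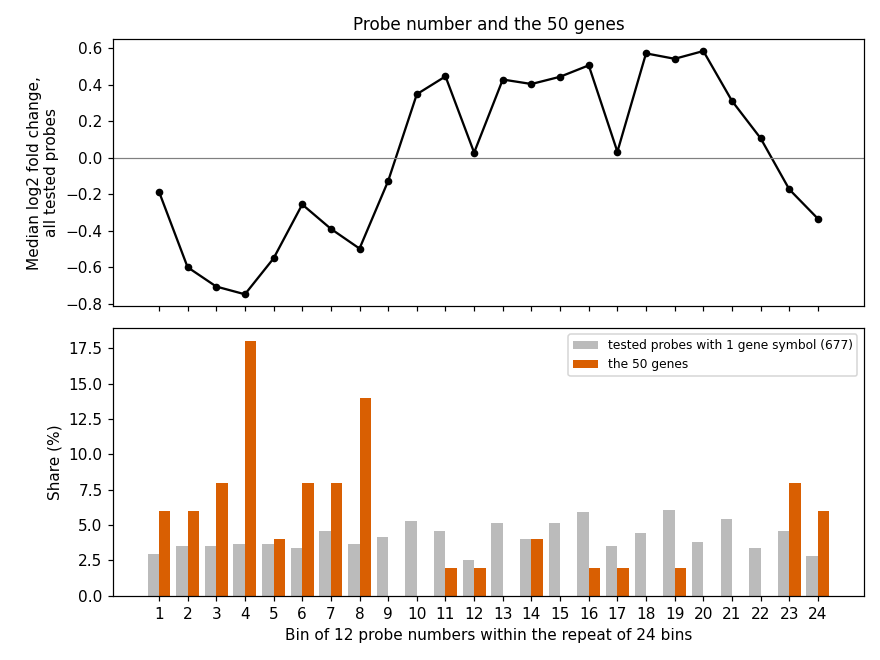
Upper panel, the median log2 fold change of all tested probes in each of the 24 bins of 12 probe numbers. Lower panel, the share of the 50 genes (orange) and of the 677 tested probes with 1 gene symbol (grey) in each bin, in percent. The genes gather in bins 1 to 8, 23 and 24, where the medians lie below 0.

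The other 6 of the 50 lay in the 12 bins with the highest medians. They were AT3G21810, the histone genes AT1G09200 and AT1G13370, AT2G37510, AT1G01500 and AT2G33180. Except for AT2G37510, whose bin had a median of only 0.03, they ran against the trend of their bins. All 6 moved farther from 0 with the correction, as did AT2G25870 in bin 12. Each of these 7 was among the 30 that kept their lower ranks. The correction takes off the bin medians, so a low gene in a bin with a median above 0 moves down largely by arithmetic. Nothing is read from the move or from the kept ranks of these genes. The roles below are general annotation of the genes and were grouped after the members were known.

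Of the genes for plastid redox, metal and sulphur functions, 7 were in the set, with fold changes from -2.15 to -0.55 and a median of -1.38. AT1G15140, an oxidoreductase of the FAD/NAD(P)-binding family, had a lowest, median and highest intensity of 0.398, 0.732 and 0.857 in WT, against 0.155, 0.234 and 0.333 in psan. The groups did not overlap, and the fold change was -2.01 ± 0.23 (SE), or -1.61 with the probe number corrected. AT2G28660, a chloroplast-targeted copper chaperone, had 0.417, 0.502 and 0.622 in WT and 0.136, 0.268 and 0.369 in psan. Its groups did not overlap either, with a fold change of -1.56 ± 0.25 (SE) and -0.93 with the probe number corrected.

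CUTA, which encodes a copper-binding protein of the CutA type, was among the brightest genes of the set. It had 12.3, 14.8 and 16.8 in WT (lowest, median and highest), against 4.33, 5.51 and 6.71 in psan. The highest psan array thus stood well below the lowest WT array in intensity, yet the ranks were only 30 apart (3406 against 3376), because few probes were this bright. Its fold change was -1.28 ± 0.18 (SE), -1.42 as deposited and -0.85 corrected for the probe number.

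AT2G02590, annotated as a small multidrug efflux protein, had 0.251, 0.679 and 0.852 in WT and 0.0715, 0.217 and 0.281 in psan. Here the brightest psan array was above the dimmest WT array, and WT arrays 1 and 2 were the low ones. The fold change was -2.15 ± 0.39 (SE). APS4, an ATP sulfurylase of the first step of sulphate assimilation, had 0.134, 0.381 and 0.435 in WT and 0.117, 0.182 and 0.245 in psan. The groups overlapped in intensity, WT arrays 1 and 2 again being the low ones. Its fold change of -1.38 ± 0.26 (SE) was -0.76 as deposited. With the probe number corrected it was -0.64, and APS4 then no longer ranked lower on every psan array.

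AT2G04700 encodes the catalytic subunit of ferredoxin-thioredoxin reductase, the enzyme that links photosystem I electrons to plastid thioredoxins. It measured 0.675 ± 0.0488 in WT against 0.480 ± 0.120 in psan (SD, n = 6 each). The WT arrays lay close together, from 0.605 to 0.731, and the psan arrays spread from 0.321 to 0.683, so the groups overlapped. The fold change was -0.86 ± 0.21 (SE), or -0.53 as deposited and -0.43 after correction, and the corrected ranks overlapped. AT4G27700, a rhodanese-type protein, had 0.706 ± 0.204 against 0.581 ± 0.109 (SD, n = 6 each), with a fold change of -0.55 that became 0.22 with the probe number corrected.

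The RNA and plastid gene expression group held 8 genes, with fold changes from -1.64 to -0.82 and a median of -1.26. UBA1A, a nuclear RNA-binding protein that associates with the UBP1 protein, had 0.368, 0.579 and 0.708 in WT (lowest, median and highest) and 0.121, 0.303 and 0.362 in psan. The highest psan array was just under the lowest WT array. Its fold change was -1.64 ± 0.30 (SE). It lay in bin 4, was at -0.90 with the probe number corrected, and then overlapped in rank. AT2G37510, with an RNA recognition motif, had 4.86 ± 0.830 in WT against 1.77 ± 0.708 in psan (SD, n = 6 each), without overlap. Its fold change was -1.55 ± 0.32 (SE) and -1.84 with the probe number corrected. A probe that lists AT2G37510 among 3 genes was near the floor. That probe had 0.000526 ± 0.00129 in WT against 0.00764 ± 0.00872 in psan (SD, n = 6 each).

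Both pentatricopeptide repeat genes of the set, members of a large family of organelle RNA-binding proteins, kept their lower ranks with the correction. AT4G14050 went from 2.01 ± 0.175 in WT to 0.942 ± 0.135 in psan (SD, n = 6 each), without overlap, and had a fold change of -1.26. AT2G19280 went from 0.940 ± 0.187 to 0.497 ± 0.177 (SD, n = 6 each), with overlap, and also had -1.26. AT3G46950, of the mTERF family of organelle transcription and RNA factors, had -0.91, or -0.54 without WT arrays 1 and 2. AT4G26370, with a NusB antitermination domain, had -1.51, and AT1G68660, an adaptor of the Clp protease of the ClpS type, had -0.82. These last 3 overlapped in rank with the probe number corrected. A further probe that lists AT3G46950 among 4 genes was not lower in psan by mean intensity. It had 0.223 ± 0.0722 in WT against 0.270 ± 0.103 in psan (SD, n = 6 each). Its fold change was -0.39 ± 0.30 (SE).

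AT2G25870, annotated as a plastid YbeY-type endoribonuclease fused to a hydrolase domain, was the only locus of the table with more than 1 single-gene probe. The probe kept in the set had 0.434 ± 0.158 in WT against 0.315 ± 0.0680 in psan (SD, n = 6 each), with a fold change of -0.89 ± 0.20 (SE). The other probe went the opposite way, from 0.113 ± 0.0497 in WT to 0.478 ± 0.162 in psan (SD, n = 6 each), a fold change of 1.59 ± 0.43 (SE). Its WT arrays lay between 0.0750 and 0.203 and its psan arrays between 0.292 and 0.727. With the probe number corrected the values were -1.04 and 1.66. The direction for this gene is therefore not settled by these arrays, and how the probes differ in sequence is not known here.

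In the group of chromatin, DNA and transcription genes were 9 members, with a median of -1.34 that became -1.69 with the probe number corrected. The histone H3 genes AT1G09200 and AT1G13370, like AT3G21810 of this group, moved away from 0 with that correction. All other members of the group moved nearer to 0, and the corrected median of -1.69 is the value of AT1G09200. The larger median thus comes from those genes in high bins and not from the group as a whole. In every other role group the correction made the median fall smaller. Corrected medians were -0.89 for RNA and plastid gene expression and -0.85 for plastid redox, metal and sulphur. They were -0.89 for membrane, traffic, wall and motor, -1.13 for other enzymes and -1.18 for genes without a role. AT1G09200, listed as H3.1, had 0.140, 0.210 and 0.289 in WT (lowest, median and highest) and 0.0940, 0.137 and 0.170 in psan. The intensities overlapped and the ranks were 432 apart. The fold change was -1.33 ± 0.22 (SE), but -0.66 as deposited and -1.69 after correction. AT1G13370 had 0.356 ± 0.159 against 0.193 ± 0.0338 (SD, n = 6 each), with -1.34 ± 0.22 (SE), -0.74 as deposited and -1.72 corrected. Histone H3 genes are near-identical copies, so these probes may read RNA of several of them.

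AT2G06040, with leucine-rich repeats, had the strongest fitted fall of the set. It had 0.725, 0.922 and 0.960 in WT, against 0.00431, 0.192 and 0.470 in psan. The WT arrays were tight and the psan arrays were not. Psan arrays 1 and 4 were at 0.0143 and 0.00431, and psan array 2 alone was above 0.3. The fold change was -3.29 ± 0.72 (SE), the largest SE of the set, and -2.54 with the offset. AT1G03810, an OB-fold nucleic acid-binding protein, showed a similar contrast at a brighter level, 4.87 ± 0.303 in WT against 0.839 ± 0.512 in psan (SD, n = 6 each). Its psan arrays 5 and 6 were at 1.20 and 1.60, the other 4 were below 1, and the fold change was -2.87 ± 0.40 (SE). A further probe that lists AT1G03810 with 2 other genes had 0.188 ± 0.0970 in WT against 0.0251 ± 0.0532 in psan (SD, n = 6 each).

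Of the zinc finger genes, AT3G21810 (CCCH type) had 0.105, 0.130 and 0.188 in WT and 0.0389, 0.0669 and 0.0783 in psan, without overlap. Its fold change was -1.83 ± 0.20 (SE), or -2.17 with the probe number corrected, in a bin whose median was 0.45. It was -1.14 as deposited and -1.18 with the offset. AT4G16610 (C2H2 type) had 0.424, 0.610 and 0.718 in WT and 0.0997, 0.269 and 0.368 in psan, also without overlap, with -1.70 ± 0.31 (SE). It lay in bin 4, and with the correction it had -0.96 and overlapped in rank. DRT101, named for DNA damage repair and toleration, had 0.936, 1.58 and 1.86 in WT and 0.491, 0.662 and 0.875 in psan. The groups did not overlap, with -1.32 ± 0.21 (SE) and -1.05 corrected. AT1G11800, of the endonuclease/exonuclease/phosphatase family, had -1.10 and -0.33 corrected, and AT4G00870, a bHLH transcription factor, -0.67 and -0.23 corrected.

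**Figure D4:**
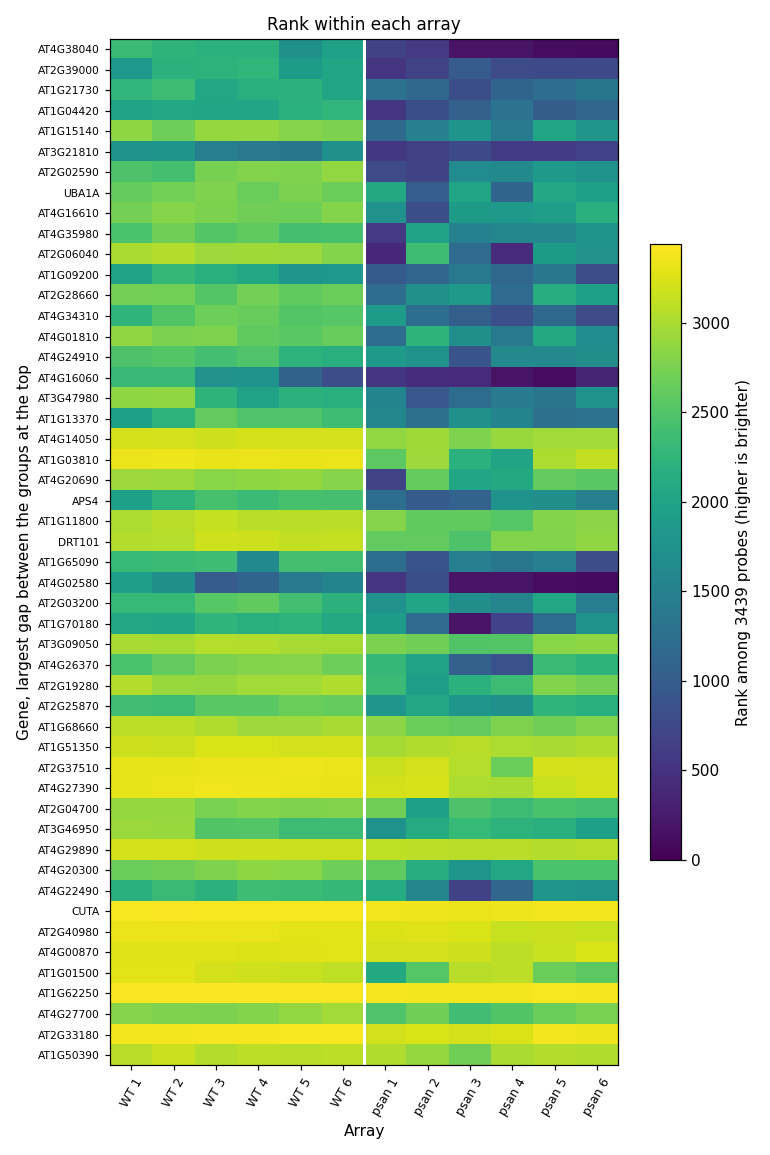
Rank of each of the 50 genes among the 3439 probes of each array (a higher rank is brighter), WT arrays left of the white line and psan arrays right of it. Genes are ordered from the largest gap between the groups, 1045 ranks for AT4G38040 at the top, to the smallest, 1 rank for AT1G50390 at the bottom.

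Among 9 other enzymes, the median fold change was -1.62. AT2G39000, of the GNAT acetyltransferase family, had the second largest rank gap, 856. Its intensities were 0.116, 0.240 and 0.323 in WT and 0.0400, 0.0824 and 0.102 in psan, without overlap, and the fold change was -2.25 ± 0.24 (SE), or -1.58 as deposited and -1.59 with the offset. AT1G04420, an aldo/keto reductase-type oxidoreductase, had 0.140, 0.247 and 0.327 in WT and 0.0468, 0.115 and 0.154 in psan. Its brightest psan array was above its dimmest WT array, and the fold change was -1.77 ± 0.28 (SE), or -1.11 as deposited. AT4G34310, an alpha/beta hydrolase, had 0.201, 0.487 and 0.605 in WT and 0.0767, 0.126 and 0.308 in psan, with overlap and -2.13 ± 0.30 (SE).

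AT4G02580, a subunit of the mitochondrial NADH dehydrogenase, was the dimmest gene of the set. It was at 0.0416 and 0.0994 on psan arrays 1 and 2 and listed at 0 on psan arrays 3 to 6, against 0.0813 to 0.155 on the WT arrays. Its fitted -1.62, or -0.83 as deposited, rests on those 2 psan arrays. AT1G01500, an erythronate-4-phosphate dehydrogenase family protein, went from 2.24 ± 0.694 to 0.803 ± 0.428 (SD, n = 6 each), with -1.76 and -2.25 corrected. AT2G03200, an aspartyl protease, had -0.95, AT2G40980, annotated as a protein kinase, -0.98, and AT4G29890, a choline monooxygenase-like protein, -0.54. With the probe number corrected, AT2G03200 had -0.63 and AT2G40980 -0.44, and both overlapped in rank. As deposited, AT2G03200 had -0.40. AT4G29890 had the lowest coefficient of variation in WT, with 1.83 ± 0.0741 (SD, n = 6) against 1.39 ± 0.110 (SD, n = 6) in psan, and its intensities did not overlap. Its corrected fold change was nevertheless 0.19.

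In the group of membrane, traffic, wall and motor genes were 8 members with a median of -1.36. AT4G38040, an exostosin-family glycosyltransferase gene, had the largest rank gap of the set. It had 0.195, 0.236 and 0.303 in WT, against 0.0724 and 0.0544 on psan arrays 1 and 2, and it was listed at 0 on psan arrays 3 to 6. The fitted -2.64, or -1.94 as deposited, therefore uses only 2 psan arrays. AT4G38040 and AT4G02580 were listed at 0 on the same 4 psan arrays. AT1G21730, a kinesin-type motor protein, had 0.209, 0.253 and 0.316 in WT and 0.0794, 0.152 and 0.181 in psan, without overlap. Its fold change was -1.51 ± 0.20 (SE), -1.37 corrected and -0.90 as deposited. A probe that lists AT1G21730 with 2 other genes had 0.172 ± 0.109 in WT against 0.339 ± 0.122 in psan (SD, n = 6 each).

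AT4G01810, a Sec23/Sec24-type protein of vesicle transport, went from 0.555 ± 0.0778 to 0.261 ± 0.103 (SD, n = 6 each) without overlap, with -1.61 and -1.002 corrected. AT3G47980, an HPP-family membrane protein, had -1.58, and AT4G24910, with a DUF579 domain, had -1.21, or -0.63 corrected. AT1G70180, a sterile alpha motif protein, was listed at 0 on 1 psan array and had -1.20, or -0.58 as deposited. AT4G22490, a lipid transfer protein-like gene, had -1.18, or -0.55 corrected. AT1G51350, with armadillo repeats, had -0.93, or -0.33 corrected. Of these 6, AT4G01810 and AT3G47980 kept their lower ranks with the probe number corrected.

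No role is given here for 9 genes. They include AT1G62250, the brightest of the set, which went from 20.8 ± 1.53 in WT to 7.67 ± 1.92 in psan (SD, n = 6 each). Its lowest WT array, at 19.4, stood above its highest psan array, at 10.2, and the fold change was -1.38, or -0.63 with the probe number corrected. AT2G33180 went from 10.1 ± 1.67 to 3.56 ± 1.88 (SD, n = 6 each) and AT4G27390 from 5.01 ± 0.940 to 1.87 ± 0.641 (SD, n = 6 each), neither with overlap. Their fold changes were -1.54 and -1.46, or -1.69 and -1.18 with the probe number corrected. AT4G35980 had 0.284, 0.421 and 0.523 in WT (lowest, median and highest) and 0.0511, 0.211 and 0.335 in psan, with overlap and -1.65 ± 0.38 (SE).

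AT4G16060 was above 0 on 4 psan arrays, where it reached at most 0.0475, and listed at 0 on psan arrays 4 and 5. Its WT arrays ran from 0.0714 on array 6 to 0.230 on array 1, and its fold change of -3.05 ± 0.51 (SE) was -1.92 with an offset that keeps zeros in and -2.46 without WT arrays 1 and 2. The remaining genes of unknown role had fold changes of -1.47 (AT4G20690), -1.56 (AT1G65090, -0.93 as deposited), -0.84 (AT3G09050) and -0.89 (AT4G20300). In the same order they had -1.06, -1.18, -0.44 and -0.39 with the probe number corrected. AT1G65090 and AT4G20300 then no longer ranked lower on every psan array.

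The spread within groups differed among the genes. The coefficient of variation over the 6 WT arrays ran from 4.06% for AT4G29890 to 44.8% for AT1G13370, with a median of 21.3%. Over the 6 psan arrays it ran from 7.29% for AT1G51350 to 173% for AT4G02580, with a median of 29.7%, and it was larger in psan than in WT for 38 of the 50 genes. Over all probes the order was the other way, with medians of 46.6% in WT and 39.7% in psan. The rule favours genes with little spread and with low psan values, and the coefficient divides by the mean, so no test of this difference is given. The share of all probes with a larger coefficient in psan was not counted, so nothing is read from the 38 genes. WT arrays 1 and 2 were both dimmer than every other WT array in 33 of the 50 genes, or 66%, against 48.4% of all probes. They were both brighter in 6 genes, AT4G16060, AT3G47980, AT1G68660, AT3G46950, AT4G29890 and AT1G01500.

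The array that set the edge of the gap was not always the same. WT array 1 held the lowest WT rank for 12 of the 50 genes and WT array 4 for 4. Psan array 5 held the highest psan rank for 14 genes and psan array 4 for 3. The gap had a median of 172 ranks, and it was under 25 in 7 genes. Over the 50 genes the WT mean and the fold change had a Spearman correlation of 0.31. The Pearson correlation was 0.19 with the WT mean as log2. The WT values enter both the fold change and the rule, and all values come from the same 12 arrays. No relation is read from these correlations.

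At the edge of the rule, AT1G50390, a pfkB-type carbohydrate kinase gene, was kept with a gap of 1 rank and a fold change of -0.49, and AT2G33180 with a gap of 2 ranks and -1.54. Bright genes have few ranks between them, which makes their gaps small. Just outside, AT3G09850 missed by 8 ranks with a fold change of -0.09, and AT2G27290 by 16 with 0.08. AT4G31530 also missed by 16 ranks, with a fold change of 0.52 and means of 37.2 in WT and 58.9 in psan. On the WT minimum, AT4G02580 and AT3G21810 were kept with means of 0.117 and 0.134, and AT3G20150 was left out with a mean of 0.0928 and a fold change of -1.33.

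By chromosome, 17 of the 50 genes lay on chromosome 4, 14 on chromosome 1, 13 on chromosome 2, 4 on chromosome 3 and 2 on chromosome 5. Of the single-gene probes matched to a locus, 17.4% were of chromosome 4 and 20.7% of chromosome 5, against 34% and 4% of the 50 genes. The probe number went with the chromosome. The 12 bins with the lowest medians held 74.2% of the tested single-gene probes of chromosome 4 and 74.2% of those of chromosome 2, but 12.6% of those of chromosome 5. Within these bins, the 50 genes made up 19.1% of the tested single-gene probes of chromosome 4, 18.6% on chromosome 1, 11.96% on chromosome 2, 11.8% on chromosome 5 and 8.82% on chromosome 3. In the other 12 bins they were 3 of 110 on chromosome 1, 2 of 32 on chromosome 2, 1 of 93 on chromosome 3, 0 of 31 on chromosome 4 and 0 of 118 on chromosome 5. The genes thus lay mostly in the low bins on each chromosome. The members were not neighbours, the closest pair on a chromosome, AT4G27390 and AT4G27700, being 39 genes apart in the gene table.

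Keywords in gene symbols and synonyms placed 36 of the 677 tested single-gene probes into role groups, since the gene table holds no descriptions. The group for DNA and transcription held AT1G09200 and DRT101 of the 50 genes, and it is described here by its 3 other tested probes. AT4G03090 was called higher by limma at an adjusted p of 0.00264, with a fold change of 1.08 ± 0.21 (SE). It lay in bin 16, whose median was 0.51. With the probe number corrected its fold change was 0.73 (limma adjusted p = 0.0243). With averaged pairs its adjusted p was 0.0945. DRT100 had a fold change of 0.96 and did not pass (limma adjusted p = 0.129). AT5G65360, a further histone H3 gene, was near the floor with a mean of 0.00651 in WT and 0.0103 in psan, and it did not pass either (limma adjusted p = 0.104). Over the whole table, 14.3% of the probes tested were called higher and 15.6% lower. The other keyword groups held none of the 50 genes.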

How the data were processed

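The authors deposited 1 intensity per probe and array, on a linear scale with zeros. The sources used here do not give how they scaled the values. Of 3439 probes, the platform annotation gives 692 a single gene symbol, 870 several and 1877 none, and 690 of the 692 matched a locus of the TAIR10.1 table, used for names and gene order only. No sequence is shown.

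The genes, lists and tests were chosen with earlier results of these data known. After quantile normalisation, zeros on single arrays were dropped and the rest, as log2, went into a two-sided limma 3.58.1 fit (lmFit, eBayes; R 4.3.3) of the whole table, with Benjamini-Hochberg adjustment over 3376 probes. The fit was tested on simulated data with independent arrays. The arrays here resembled each other in pairs, so that test does not cover the error rate in these data. Genes given with lowest, median and highest values were the 14 with the largest rank gap and those with a symbol other than the locus name. The other genes are given in brief. Any p-value reflects the spread among these arrays alone, and that spread may be technical. The probe number correction subtracts row (24) and column (12) medians of the repeating probe numbers from each array. Role groups came from general knowledge, after the members were known. Alternatives covered scaling, dim probes, zeros, averaged pairs, left-out arrays and the rule's minimum. Figures were drawn with matplotlib 3.10.9.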

Additional observations from a re-analysis of the deposited data

Results flagged for a closer look

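In 98 sets of 4 to 6 arrays of 1 group and gene, 5 arrays stood far from the others of their group, where chance gives about 4.9 (1 in 20). All values are normalised log2 signals. AT1G65090 was at -2.40 on WT array 4, against -1.47 to -1.26 on the other WT arrays. AT4G16610 was at -3.78 on psan array 2, against -2.28 to -1.66 on the other psan arrays. AT4G20690 was at -4.11 on psan array 1, against -1.88 to -0.89. AT4G35980 was at -4.62 on the same array, against -2.59 to -1.94. AT4G24910 was at -3.62 on psan array 3, against -2.46 to -2.10. The lone psan arrays were low, so each deepened the mean fall of its gene.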

How the results depend on the processing

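Leaving out each array in turn gave 52 to 56 genes; with fewer arrays the rank condition can only widen, so that all 50 are among them is no sign of stability. The rule kept 27 genes on deposited values in place of ranks, 30 at a WT mean of at least 0.5, 84 without WT samples 1 and 2 and 91 with averaged pairs; the last 2 also ask for fewer values. With the probe number corrected it kept 46, of which 30 were among the 50. The median fold change of the 50 genes was -1.07 as deposited, -1.75 with median centring, -1.24 with an offset and -0.98 with the probe number corrected, and -1.48 to -1.35 with each array left out. Of 950 values for single genes under these alternatives, 2 turned sign, AT4G29890 (0.19) and AT4G27700 (0.22), both with the probe number corrected, and 37 moved by over 1.5 times. The cause was not tested. Promoter motifs were not run. Over all probes, 1008 were called in limma, 482 higher and 526 lower. This fell to 142 with averaged pairs, which leaves 3 samples a group, and to 585 at an adjusted p under 0.01. Higher and lower calls numbered 747 and 254 on deposited values, 338 and 675 with median centring. With the sample number as a replicate block 894 were called; same-numbered arrays of the groups had deviations correlating from -0.155 to 0.228, so the numbers were not taken as pairs.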
